A study of Hormonema carpetanum with 4 samples.

Results

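Hormonema carpetanum is a filamentous fungus that makes the triterpene glycoside enfumafungin. The genes described here are annotated as enzymes of its squalene and ergosterol branch of isoprenoid metabolism. They were chosen by gene number and annotation, with earlier results of these data known, and number 6 of the 10951 genes in the table. They are squalene synthase erg9 (gene09579), squalene epoxidase erg1 (gene02835), a C-4 methylsterol oxidase with a best hit to ERG25 (gene00328), 3-keto-steroid reductase erg27 (gene09087), the C-5 sterol desaturase ERG3 (gene05078), and a cytochrome P450 with the symbol CYP61A and a best hit to oblE (gene02026). RNA-seq was run on mycelium from fermentation broth, in a study that sought more enfumafungin through mutagenesis and process changes. The wild-type strain, ATCC 74360, was sampled on day 14. The mutant strain ENF-5-29 gave the other libraries, 1 from day 14 and 1 each from day 18 cultures kept at 19 °C and at 25 °C. The labels named no gene altered in the mutant, gave no temperature for day 14, and in the extraction protocol gave 18 days for both strains. With a single library for each of these 4 groups, no value below has a replicate spread, and neighbouring levels cannot be told apart by a test.

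Ergosterol is the main membrane sterol of most fungi. Squalene synthase joins a pair of farnesyl diphosphate molecules into squalene, squalene epoxidase adds an oxygen, and lanosterol synthase closes the rings. Later enzymes remove methyl groups at carbons 14 and 4, add one to the side chain, and place the double bonds of the finished sterol. Triterpenes such as enfumafungin derive from squalene as well, with a cyclase of their own, so erg9 stands before the point where sterol and triterpene synthesis part. Whether erg1 does so too was not examined here.

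Levels are given in TPM, a unit scaled by gene length and by library total, which can therefore be compared between genes. In each library between 8569 and 8942 genes reached 1 TPM, and the 20 highest genes took between 14.1% and 23.5% of all TPM, most in the wild type. Read depth cannot be recovered from TPM, and the counting error is therefore unknown. Log2 ratios were taken on TPM plus a pseudocount of 1, which understates differences of low genes, and genes past a 2-fold ratio are given as higher or lower. A rescaling by the median ratio between libraries shifted the median over all tested genes by -0.70 on the log2 scale in the strain comparison, by 0.17 between temperatures, and by 0.32 and 0.50 between day 14 and day 18 at 25 °C and 19 °C. Ranks within a library and ratios between genes of 1 library do not depend on that scaling. As mycelium markers, 18 genes for chitin synthesis, septins and Woronin bodies were read, with a summed level between 1257 and 1735 TPM in each library. Between 16 and 18 of them reached 1 TPM in each library. So did 8569 to 8942 of all 10951 genes, so these values do not test the mycelium label. The conidiation regulators abaA (gene06725) and wetA (gene02208) stood at 1.05 to 4.55 TPM and at 0 to 0.11 TPM.

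Annotation sources concurred for some genes and not for others. Of the 6 genes, 5 carried an orthology number on the KEGG map for steroid biosynthesis, which held 26 genes of the table. The exception was gene00328, for which the ERG25 name came from the Swiss-Prot hit alone, while its Nr hit was a hypothetical protein. For gene02026 the orthology number was that of ERG5, the C-22 sterol desaturase, whereas the Swiss-Prot hit was oblE, a P450 of Emericella variicolor, and another gene (gene06143) had both the ERG5 number and an erg5 hit. The fatty acid hydroxylase domain was annotated in gene00328 and gene05078. No gene of the table had the same 4 values as any of the 6.

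The 6 genes spanned a wide range of levels. ERG3 (gene05078), whose product puts the C-5 double bond into the sterol ring and whose loss in yeasts is known to alter the response to azole drugs, stood first in every library. Its share of the summed TPM of the 6 genes was 94.4% in the wild type, 60.5% in the mutant at day 14, 77.6% at day 18 and 19 °C, and 72% at day 18 and 25 °C. In the wild type the order then ran oblE hit, erg9, erg1, ERG25 hit and erg27. In the mutant at day 14 and at day 18 and 25 °C it ran oblE hit, erg1, erg9, erg27 and ERG25 hit, and at 19 °C erg1 stood above the oblE hit. Thus erg27 was the lowest of the 6 in the wild type, and the ERG25 hit was the lowest in each mutant library. Summed without ERG3, the other 5 genes came to 292 TPM in the wild type, 835 TPM in the mutant at day 14, 313 TPM at 19 °C and 483 TPM at 25 °C. Of these sums the oblE hit alone held 111, 554, 109 and 247 TPM in that order, so they do not show a like change of all 5 genes. The sums were taken as deposited and were not rescaled.

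**Figure D1:**
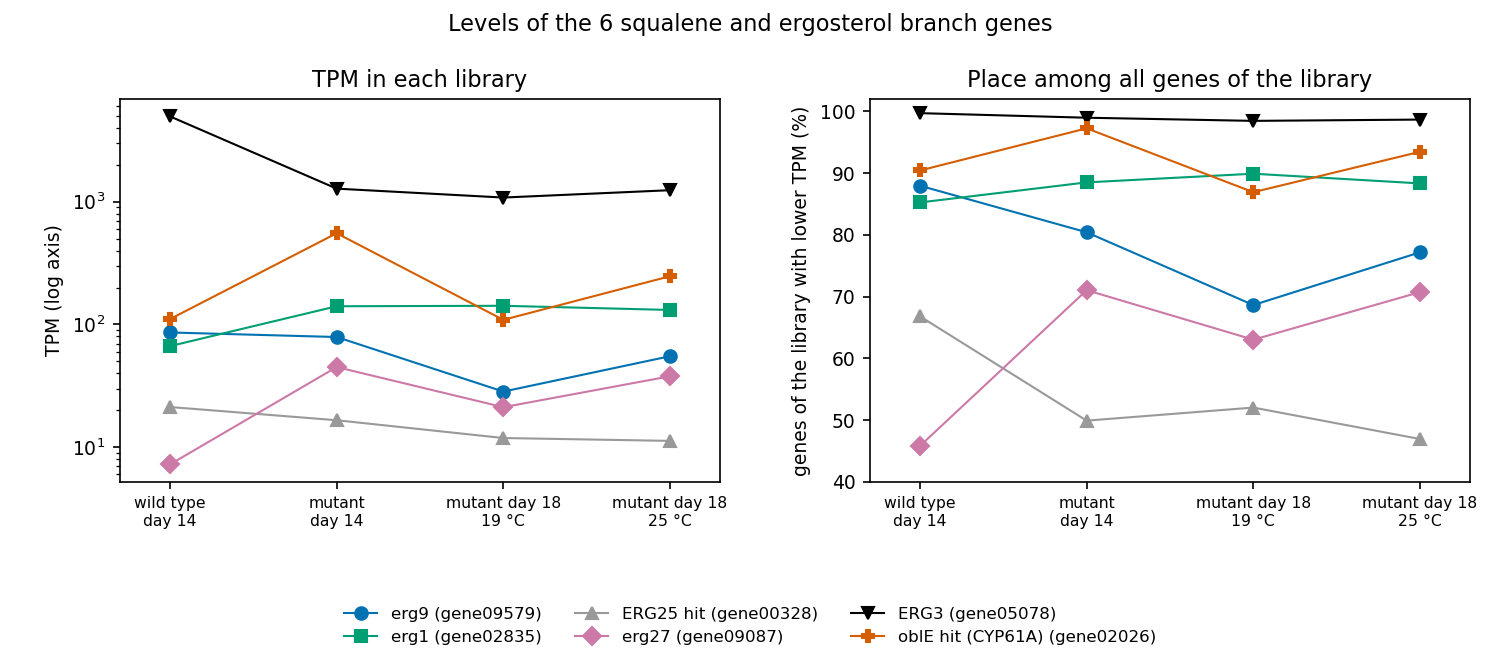
Levels of the 6 genes in the 4 libraries (x axes), as TPM on a log axis (left) and as the percentage of the library's genes with lower TPM (right); each point is 1 library and lines only join points of a gene. ERG3 is highest throughout and lower in the mutant libraries, while erg27 goes from 7.25 TPM in the wild type to between 21.2 and 45.0 TPM.

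Squalene synthase erg9 (gene09579), the entry to the branch, stood at 86.1 TPM in the wild type, 79.1 TPM in the mutant at day 14, 28.4 TPM at day 18 and 19 °C, and 55.2 TPM at day 18 and 25 °C. The wild-type level was above all mutant levels, and the 19 °C library was the lowest. By rank among the genes of its library, erg9 went from place 1318 in the wild type to 2144, 3435 and 2500 in those mutant libraries. Squalene epoxidase erg1 (gene02835), the oxygen-requiring step that the antifungal terbinafine blocks, stood at 66.7 TPM in the wild type, 141 TPM in the mutant at day 14, 142 TPM at 19 °C and 131 TPM at 25 °C. Its 3 mutant values lay within 1.08-fold of each other and all above the wild type, and its places were 1616, 1260, 1106 and 1278. The ratio of erg1 to erg9 was therefore 0.774 in the wild type, 1.78 at day 14 in the mutant, and at day 18 4.999 at 19 °C and 2.38 at 25 °C.

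The C-4 methyl groups of the sterol are removed by a complex of oxidase, decarboxylase and ketoreductase, whose last enzyme is erg27. The erg27 gene (gene09087) stood at 7.25 TPM in the wild type, 45.0 TPM in the mutant at day 14, 21.2 TPM at 19 °C and 37.9 TPM at 25 °C. All mutant libraries lay above the wild type, with places of 3172, 4050 and 3206 against 5932. The ERG25 hit (gene00328), by its best hit an oxidase of the same complex, went the other way, at 21.3 TPM in the wild type and 16.6, 11.9 and 11.3 TPM in the mutant libraries. Its place was 3635 in the wild type and between 5253 and 5812 in the mutant.

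Of the late desaturation steps, ERG3 (gene05078) stood at 4956 TPM in the wild type, 1278 TPM in the mutant at day 14, 1082 TPM at 19 °C and 1242 TPM at 25 °C. Its 3 mutant values lay within 1.18-fold of each other, and the wild type, where ERG3 was gene 32 by rank, stood apart from places 113, 169 and 146. In the wild type ERG3 was 9.88 times the next gene of the sterol pathway, and in the mutant libraries between 1.72 and 2.32 times. The oblE hit (gene02026) is placed at the C-22 desaturation step by its orthology number and symbol, not by its Swiss-Prot hit, and its function is not settled. It stood at 111 TPM in the wild type, 554 TPM in the mutant at day 14, 109 TPM at 19 °C and 247 TPM at 25 °C. Here the wild type lay inside the range of the mutant, almost level with the 19 °C library, and the mutant libraries themselves spread over 5.08-fold, the widest spread among the 6 genes within the mutant.

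The mutant was compared with the wild type at day 14. With 1 library per strain and no temperature given for either, strain cannot be told apart from differences between the cultures. By log2 ratio, 3 of the 6 genes were higher in the mutant and 1 was lower, where 40.7% of 9272 tested genes were higher and 14% lower. The 3 higher genes were erg27 at 2.48, the oblE hit at 2.31 and erg1 at 1.07, corresponding to 6.21-fold, 5.004-fold and 2.11-fold in TPM. ERG3 was lower, at -1.95, with the wild type 3.88 times the mutant. The remaining log2 ratios were -0.12 for erg9 and -0.34 for the ERG25 hit. The median of the 6 was 0.47, beside 0.64 over all tested genes. After rescaling by the median ratio, erg27, the oblE hit and ERG3 kept their calls, at 1.75, 1.54 and -2.73, whereas erg1 was within 2-fold at 0.30 and the ERG25 hit was lower at -1.07. Over all tested genes the higher ones made up 74.4% of the calls as deposited and 48.9% after that rescaling. Of 18 mycelium markers, 9 were higher in the mutant and 1 lower, beside the 40.7% and 14% of all tested genes. Their median was 0.86. After the rescaling 4 were higher and 2 lower, where 2281 of 9272 tested genes were higher and 2385 lower. The part of these markers in the ratios of the 6 genes was not tested.

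**Figure D2:**
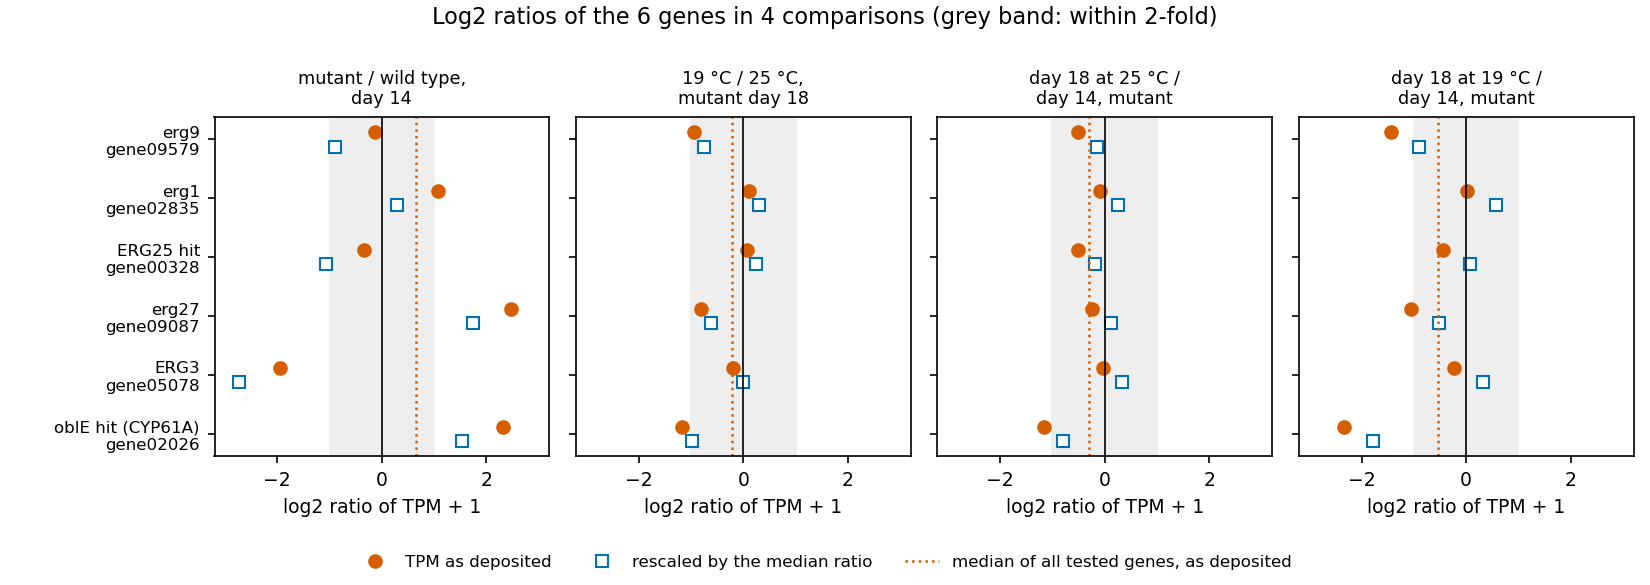
Log2 ratios of TPM plus 1 (x axes) of the 6 genes (y axis) in 4 comparisons, from TPM as deposited (filled circles) and after rescaling by the median ratio (open squares); the dotted line is the median of all tested genes. In the strain panel erg27 and the oblE hit lie right of the 2-fold band and ERG3 left of it under both scalings, at 2.48, 2.31 and -1.95 as deposited.

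Set against all mutant libraries at once, the wild type lay below each of them for erg1 and erg27, and above each of them for erg9, the ERG25 hit and ERG3. Over 9508 tested genes it lay below all of them in 43% and above all of them in 24.2%. With a 2-fold gap to the nearest mutant library required, erg27 was higher in the mutant, at a log2 ratio of 1.43, as were 19.2% of tested genes, and ERG3 lower, at -1.95, as were 8.98%. The nearest-library log2 ratio of erg1 was 0.97. Of the genes called in this way, 68.1% were higher on the deposited scale and 47.4% on the rescaled one, where the ERG25 hit was also lower, at -1.004. Strain cannot be told apart from day and temperature in the day 18 libraries.

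The day 18 cultures of the mutant differed in temperature. The log2 ratio of the 19 °C library to the 25 °C library was taken for each gene. Of the 6 genes, 1 was lower at 19 °C and 0 were higher, where 21.4% of 9064 tested genes were lower and 10.9% higher. The lower gene was the oblE hit, at a log2 ratio of -1.17, the 25 °C library being 2.27 times the 19 °C library. After rescaling by the median ratio it was -0.98 and no longer called. The next log2 ratios were those of erg9 at -0.93 and erg27 at -0.81, both within 2-fold, while ERG3 at -0.20, erg1 at 0.11 and the ERG25 hit at 0.07 were close to 0. The median of the 6 was -0.50, beside -0.21 over all tested genes. Higher genes made up 33.7% of all calls as deposited and 45.4% after the rescaling. Of 17 mycelium markers tested, 10 were lower at 19 °C and 0 higher, the median being -1.14, and their part in these ratios was not tested.

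Both day 18 libraries were set beside the mutant at day 14. These comparisons share that library, and its temperature was not given. At 25 °C, 1 of the 6 genes was lower than at day 14 and 0 were higher, where 24.4% of 9236 tested genes were lower and 14.1% higher. That gene was the oblE hit, at a log2 ratio of -1.16, which became -0.80 after rescaling by the median ratio. The ERG25 hit and erg9 stood at -0.52 and -0.51. The log2 ratios of erg27, erg1 and ERG3 were -0.24, -0.10 and -0.04, and their sign turned after rescaling, to 0.11, 0.26 and 0.32. At 19 °C, 3 genes were lower than at day 14 and 0 were higher, where 27.9% of 9119 tested genes were lower and 7.97% higher. They were the oblE hit at -2.33, erg9 at -1.44 and erg27 at -1.05, of which only the oblE hit remained past 2-fold after rescaling by the median ratio, at -1.78, with erg9 at -0.90 and erg27 at -0.51. The ERG25 hit stood at -0.45 and ERG3 at -0.24, and after rescaling at 0.07 and 0.32, while erg1 stood at 0.01 and 0.57. Higher genes made up 36.7% of all calls at 25 °C and 22.2% at 19 °C as deposited, and 57.0% and 59.2% after rescaling. The mycelium markers differed at 25 °C as well, 9 of 18 being higher than at day 14 and 0 lower. Their median was 0.95 on the log2 scale, beside -0.30 over all tested genes. At 19 °C 0 were higher and 2 lower, and their median was -0.55, like that of all tested genes. Their part in the ratios of the 6 genes was not tested.

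The rest of the sterol pathway gives the setting of these values. A list of 14 steps, matched by orthology number or name, held the 6 genes and 13 others. Between the strains 4 of those 13 were higher in the mutant and 0 were lower as deposited, where 40.7% of all tested genes were higher and 14% lower. Their median log2 ratio of 0.54 was below the 0.64 of all tested genes, and after rescaling by the median ratio 0 were higher and 3 lower. Over all 9272 tested genes that rescaling gave 2281 higher and 2385 lower. The 4 genes higher as deposited were the 3 hits to erg6, the methyltransferase that adds the side-chain methyl group, and an erg26 decarboxylase (gene05010), at 44.9 and 92.0 TPM. Of the erg6 hits, gene08313 carried at least 96.0% of their summed TPM in every library, at 90.1 TPM in the wild type, 290 TPM in the mutant at day 14, 313 TPM at 19 °C and 173 TPM at 25 °C. Both others, gene03908 and gene04991, stood at 0.84 and 0.14 TPM in the wild type and 3.4 and 1.5 TPM in the mutant at day 14, and the plain TPM ratio of gene04991, 10.7, exceeded that of erg27. The other 9 were within 2-fold. The azole target cyp51B (gene02287) had a log2 ratio of 0.54, the last reductase of the pathway ERG4 (gene02694) 0.67 and the C-14 reductase ERG24 (gene09128) 0.07, and each of these turned negative after rescaling, to -0.23, -0.09 and -0.70. The remaining log2 ratios included those of the C-8 isomerase (gene09371) at -0.27 and the complex scaffold ERG28 (gene03522) at -0.29, which with erg25B were the 3 lower genes after rescaling, at -1.04, -1.05 and -1.11 in that order. A second erg26 hit (gene02389) stood at 3.72 and 3.17 TPM.

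Between temperatures, 2 of the other 13 sterol genes were higher at 19 °C and 0 were lower, where 10.9% of all tested genes were higher and 21.4% lower. Their median log2 ratio was 0.66, beside -0.21 over all tested genes, and after rescaling by the median ratio 5 were higher and 0 lower. Over all 9064 tested genes that rescaling gave 1318 higher and 1584 lower. The C-8 isomerase gene reached 87.5 TPM in the 19 °C library and 40.4 TPM in the 25 °C library, and the second erg26 hit 2.64 and 0.61 TPM. Between day 14 and day 18 at 25 °C, 3 of the 13 were lower and 0 higher, beside 24.4% and 14.1% of all tested genes. These were the C-8 isomerase at a log2 ratio of -1.69, ERG24 at -1.68 and the second erg26 hit at -1.37, all still past 2-fold after rescaling. At 19 °C, 1 of the 13 was higher than at day 14, the low erg6 hit gene04991, and 0 were lower, beside 7.97% and 27.9% of all tested genes. After rescaling 2 were higher, gene04991 and erg25B (gene08535), the latter at 1.22, where 1408 of 9119 tested genes were higher and 970 lower.

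**Figure D3:**
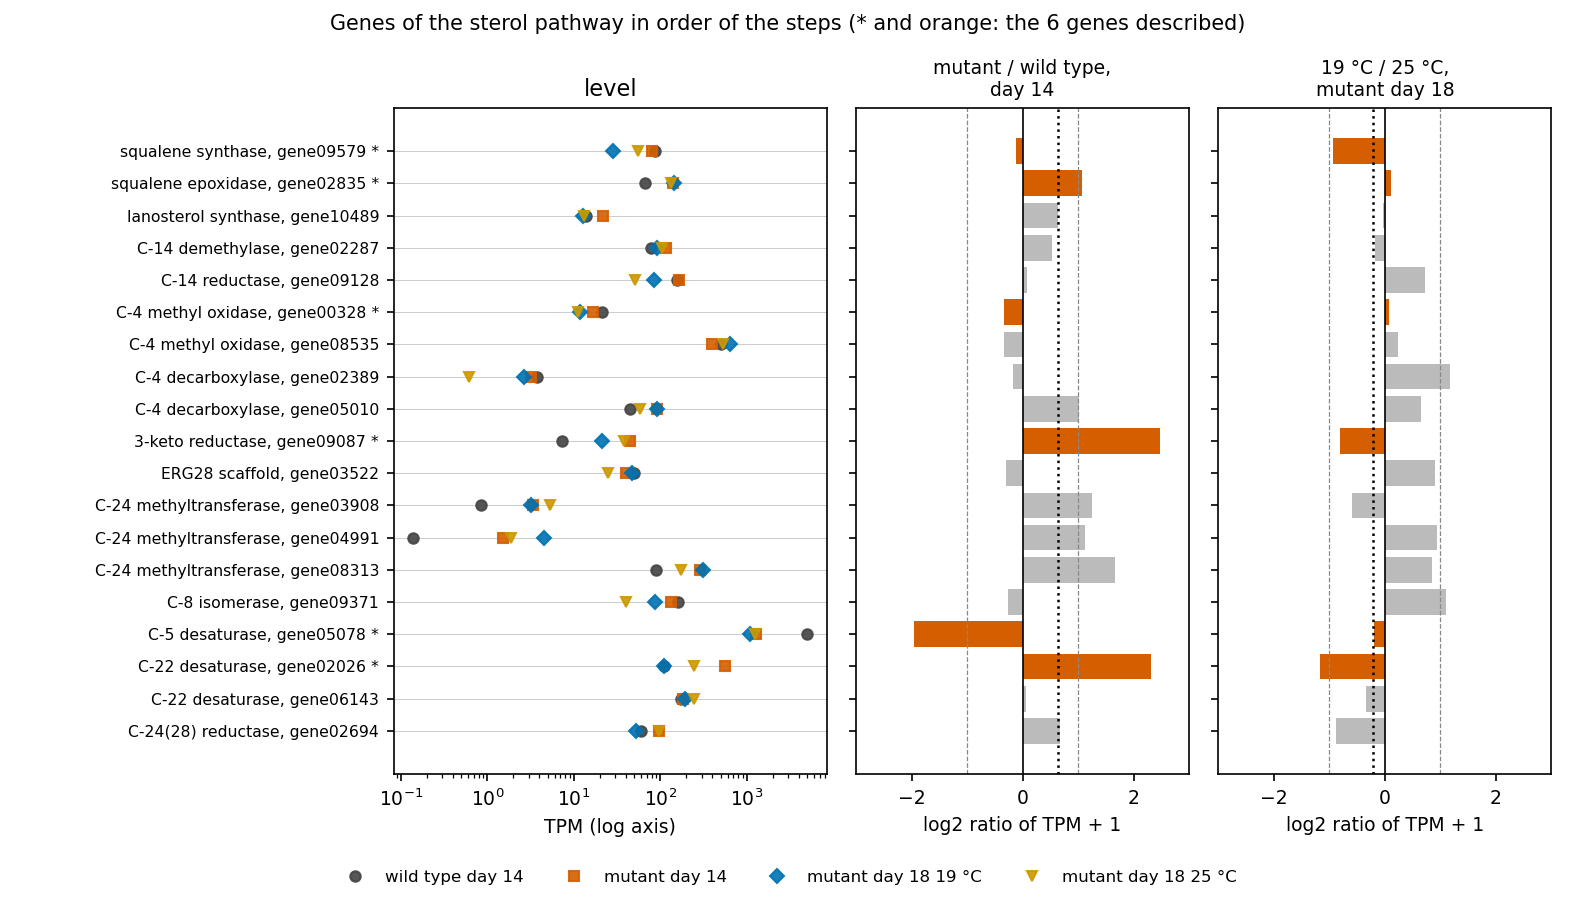
The 19 genes of the sterol pathway in step order (y axis): TPM in each of the 4 libraries on a log axis (left), and log2 ratios of TPM plus 1 between strains (middle) and temperatures (right), with dashed lines at 2-fold and a dotted line at the median of all tested genes. On this log2 scale the 6 genes described, in orange, hold the largest strain ratios in both directions, erg27 at 2.48 and ERG3 at -1.95.

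For 2 of the 6 genes a partner with the same assigned step was present. The oblE hit (gene02026) shares its orthology number with the erg5 hit (gene06143), which stood at 175 TPM in the wild type, 182 TPM in the mutant at day 14, 193 TPM at 19 °C and 243 TPM at 25 °C. On the deposited scale this erg5 hit thus varied little while the oblE hit varied several-fold. The oblE hit was 0.632, 3.04, 0.566 and 1.02 times the erg5 hit in those libraries. After rescaling by the median ratio, the erg5 hit had a log2 ratio of -0.71 between strains, beside 1.54 for the oblE hit. For day 18 at 25 °C and 19 °C against day 14 the erg5 hit was then at 0.78 and 0.64, and the oblE hit at -0.80 and -1.78. The ERG25 hit (gene00328) was the minor gene of its pair in every library. Its partner erg25B (gene08535), which has the ERG25 orthology number, stood at 502, 398, 630 and 536 TPM, between 23.6 and 53.0 times as high. The ERG25 hit carried 4.07% of the summed TPM of the pair in the wild type and 1.85% at 19 °C.

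At the cyclisation step, lanosterol synthase erg7A (gene10489), which commits oxidosqualene to the sterol route, stood at 13.9 TPM in the wild type, 22 TPM in the mutant at day 14, 12.8 TPM at 19 °C and 13.2 TPM at 25 °C. Enfumafungin synthase efuA (gene04134) stood at 31.7, 2829, 1049 and 887 TPM in the same order. The ratio of efuA to erg7A was 2.29 in the wild type, 129 at day 14 in the mutant, and at day 18 82.0 at 19 °C and 67.3 at 25 °C. Relative to erg9, which precedes both, efuA stood at 0.368, 35.8, 36.9 and 16.1 times, and relative to erg1 at 0.475, 20.1, 7.38 and 6.76 times.

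**Figure D4:**
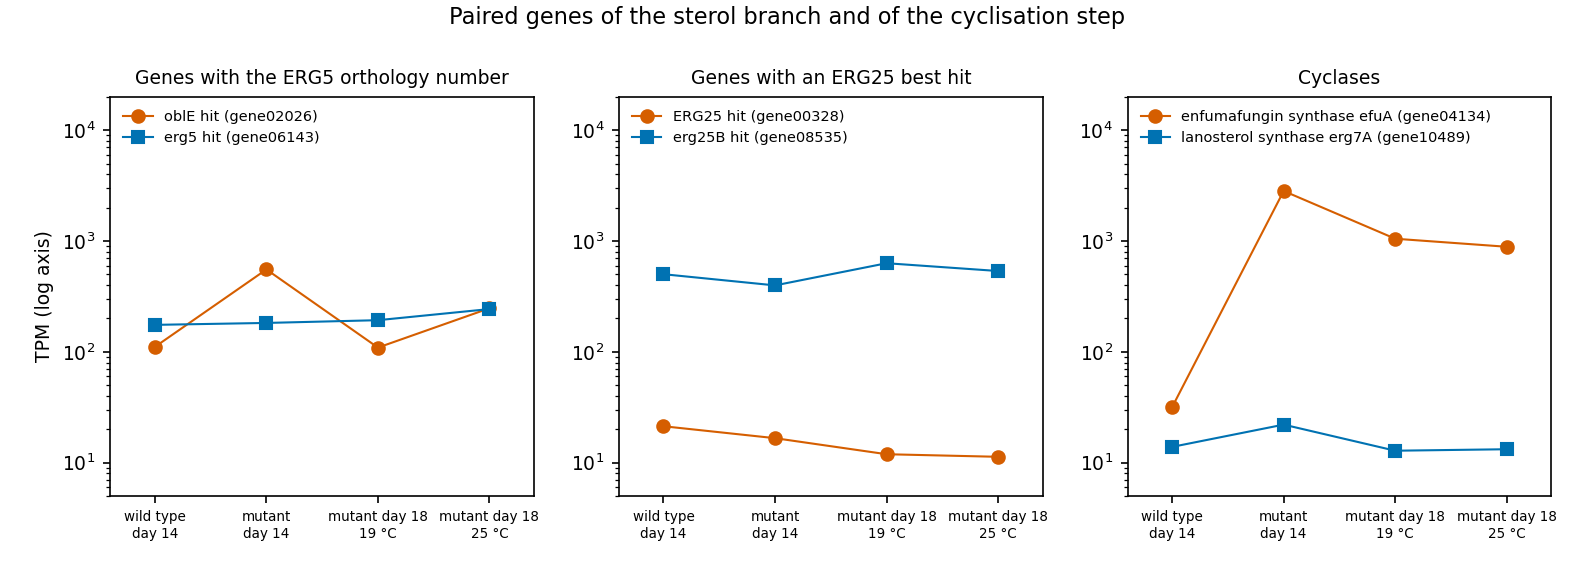
TPM on a log axis (y) in the 4 libraries (x) for the genes with the ERG5 orthology number (left), the genes with an ERG25-type hit (middle) and the cyclases of the enfumafungin and sterol routes (right); each point is 1 library. The erg5 hit stays between 175 and 243 TPM while the oblE hit runs from 109 to 554 TPM, and lanosterol synthase stays between 12.8 and 22 TPM.

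Genes of mevalonate and prenyl diphosphate synthesis, and genes that pass electrons to the branch or govern it, were counted from lists of names. The counts are to be read against the 40.7% higher and 14% lower genes and the median of 0.64 over all genes tested between strains. Between temperatures the same values were 10.9%, 21.4% and -0.21. After rescaling by the median ratio, 2281 of 9272 tested genes were higher and 2385 lower between strains. Between temperatures 1318 of 9064 were then higher and 1584 lower. Of 13 mevalonate and prenyl diphosphate genes, 5 were higher in the mutant at day 14 and 1 was lower, and after rescaling by the median ratio 3 were higher and 4 lower. Their median log2 ratio was 0.89 as deposited, and 5 and 1 of 13 lie near the shares of all genes or below. The extremes at 10 TPM or more were geranylgeranyl diphosphate synthases, gene09063 at 6.46 and 55.2 TPM and gene06243 at 23.6 and 11.9 TPM. Between temperatures 3 of 12 tested were higher at 19 °C and 1 lower. The 3 higher genes, looked up after the count was seen, had consecutive numbers, gene06242, gene06243 and gene06244, with hits to HMG-CoA reductase, geranylgeranyl diphosphate synthase and HMG-CoA synthase, and log2 ratios of 2.88, 4.14 and 4.06. Of these gene06243, the highest, stood at 60.1 TPM in the 19 °C library and 2.47 TPM in the 25 °C library. The lower gene was another HMG-CoA reductase gene, gene03104, at 39.7 and 155 TPM. Farnesyl diphosphate synthase (gene10535), which makes the substrate of erg9, stood at 199 TPM in the wild type, 172 TPM in the mutant at day 14, 79.7 TPM at 19 °C and 54.9 TPM at 25 °C. Like erg9 it was highest in the wild type, but unlike erg9 it was lowest at 25 °C.

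Cytochrome b5 and the reductases supply electrons to the oxidases and P450 enzymes of the branch. Of 9 such genes, 5 were higher in the mutant at day 14 and 1 was lower, where 40.7% of all tested genes were higher and 14% lower. Their median log2 ratio was 1.35, beside 0.64 over all genes. After rescaling 3 were higher and 2 lower, where 2281 of 9272 tested genes were higher and 2385 lower. A cytochrome b5 gene (gene00382) stood at 88.4 TPM in the wild type, 694 TPM in the mutant at day 14, 433 TPM at 19 °C and 52.0 TPM at 25 °C. Its log2 ratios of 2.96 between strains and 3.03 between temperatures were the largest of the list. A cytochrome b5 reductase 4 hit (gene09631) was the smallest in both, at 89.4, 15.95, 13.5 and 40.3 TPM. Between temperatures 3 of 9 were higher at 19 °C and 2 lower, where 10.9% of all tested genes were higher and 21.4% lower. The main NADPH-cytochrome P450 reductase (gene06866), named after its values were seen, stood at 191, 183, 134 and 234 TPM.

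Of 19 genes for sterol regulation, storage and transport, 9 were higher in the mutant at day 14 and 3 lower, near the shares of all genes. Their median log2 ratio was 0.96, beside 0.64 over all genes. After rescaling 7 were higher and 4 lower, where 2281 of 9272 tested genes were higher and 2385 lower. The largest ratio was that of an oxysterol-binding protein homolog (gene03763), at 6.84 and 109 TPM. The smallest was that of a hit to the sterol uptake regulator UPC2 of Candida albicans (gene06736), at 157 TPM in the wild type, 12.9 TPM in the mutant at day 14, 53.5 TPM at 19 °C and 349 TPM at 25 °C. Between temperatures 0 of 19 were higher at 19 °C and 5 lower, against 1 and 4 after rescaling, and the largest log2 ratio was 0.99, of a sterol carrier protein hit (gene03456). The sterol-sensing genes below were picked after their values were seen. A pair of hits to the sterol-responsive transcription factor SREBP of fission yeast stood at 57.0, 325, 746 and 727 TPM (gene00668) and at 22.1, 70.5, 51.4 and 186 TPM (gene00057). The INSIG hit (gene02314), whose animal counterpart holds SREBP back in the endoplasmic reticulum, stood at 83.7, 392, 439 and 327 TPM. The hit to the SREBP escort protein SCAP (gene07339) was lower in each mutant library, at 23.7, 9.21, 2.86 and 2.31 TPM.

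The shape of each gene's profile was compared with those of named genes at a mean of 10 TPM or more, by the Euclidean distance between mean-centred log2 values over the 4 libraries. With so few libraries many genes come close by this measure, and 19 of 4772 lay within 0.5 of the oblE hit, 38 of ERG3, 70 of erg9, 151 of erg27, 169 of erg1 and 212 of the ERG25 hit. The nearest to ERG3 was a polyprenol reductase hit (gene03339) at a distance of 0.13, with 38.9 TPM in the wild type and between 7.13 and 9.30 TPM in the mutant. The nearest to erg27 was a tetratricopeptide repeat protein (gene05197) at 0.08, and to the oblE hit an RNA-binding protein rnc1 hit (gene04402) at 0.18. For erg9, erg1 and the ERG25 hit they were a release factor-like protein (gene07896) at 0.11, a thioredoxin-like protein (gene02745) at 0.06 and a subunit of a trafficking complex (gene08741) at 0.07. Within the sterol pathway list the closest profile to any of the 6 was that of the erg26 gene gene05010 to erg1, at 0.50, and the closest to the oblE hit was erg27, at 1.22.

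The genes with numbers directly before and after the 6 were read as well. Beside ERG3 (gene05078) stood gene05077 at 15.1 TPM in the wild type, against 32.3 TPM in the day 14 mutant, and gene05079 at 1.15 and 2.87 TPM. Next to the oblE hit (gene02026), gene02027 stood at 111 TPM in the wild type, 52.4 TPM in the mutant at day 14, 40.2 TPM at 19 °C and 25.6 TPM at 25 °C. It was thus lower in each mutant library than in the wild type. The oblE hit was higher than the wild type at day 14 and at 25 °C, and almost level with it at 19 °C. Beside erg27 (gene09087) both neighbours were higher in the mutant at day 14, gene09086 at 2.65 and 18.7 TPM and an AP-1 adaptor subunit (gene09088) at 26.0 and 84.3 TPM. The log2 ratios between strains beside erg9 were 0.79 (gene09578) and 1.11 (gene09580). Those beside erg1 were -0.96 (gene02834) and 0.35 (gene02836). Those beside the ERG25 hit were 0.68 (gene00327, at most 0.6 TPM) and 0.93 (gene00329). Coordinates were not analysed here, so neighbouring numbers are not shown to be neighbouring genes.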

How the data were processed

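Libraries for mRNA sequencing were prepared from total mycelial RNA (SMARTER kit, per the labels' protocols). The authors deposited TPM for 4 libraries and 10951 genes, rounded to 2 decimals, and each column sums to 1000000 within rounding. Which aligner, counting tool, genome build or annotation was used is not given in the sources. Columns were matched to samples by library name, and groups taken from sample titles.

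Ratios were differences of log2 of TPM plus 1, for genes at 1 TPM or more in at least 1 library compared, called at 2-fold. No test was run with 1 library per group, and TPM are not counts, so no count model was used. The 6 genes and the gene lists were chosen with earlier results of these data known. Name patterns wrongly caught 4 genes, which were removed. Named genes were the 6, the sterol pathway list, the extremes of the other lists at 10 TPM or more, the 3 nearest profiles of each gene (the nearest is printed) and the gene numbers next to each; farnesyl diphosphate synthase, gene06866, the sterol-sensing genes, the conidiation regulators and the sphingolipid hydroxylases were named after their values were seen.

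The alternatives changed the pseudocount to 0.1 or 5, dropped the filter or raised it to 10 TPM, and rescaled libraries by their median ratio (7805 genes that reached 1 TPM in every library) or by totals without the 20 highest genes. The computation of ratios, calls and rescaling was tested on simulated data, which bears on the arithmetic and not on the spread between cultures. Python 3.11.15, numpy 2.4.6, pandas 2.3.3 and matplotlib 3.10.9 were used.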

Additional observations from a re-analysis of the deposited data

How the results depend on the processing

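Of 180 log2 ratios of the 6 genes recomputed over 5 comparisons and 6 alternatives, 172 stayed on the same side of the 2-fold threshold, 6 dropped within 2-fold, 2 passed it and 0 reversed among called ratios. Dropping or raising the filter leaves a ratio as it was, so the 30 ratios under each of these settings could not change. Under rescaling by the median ratio 23 of 30 stayed, 5 dropped within 2-fold and 2 passed it. Counts of higher genes among the 6 stayed within 1.5 times of the reported ones under every alternative. Rescaling by the median ratio changed the count of lower genes from 1 to 2 between strains, from 1 to 0 between temperatures, from 1 to 0 for day 18 at 25 °C, from 3 to 1 for day 18 at 19 °C, and from 1 to 2 for the wild type against all mutant libraries. No other alternative changed a count of the 6 genes by more than 1.5 times. A pseudocount of 5 took erg27 at 19 °C against day 14 to -0.93. Over all genes, rescaling by the median ratio gave 2281 higher and 2385 lower between strains (from 3772 and 1301), 1365 lower at 25 °C against day 14 (from 2249), 1408 higher and 970 lower at 19 °C against day 14 (from 727 and 2545), and 1442 lower against all mutant libraries (from 854). A pseudocount of 5 gave 642 higher and 1280 lower between temperatures (from 989 and 1942) and 1484 lower at 19 °C against day 14 (from 2545). Of 240 recomputed list counts, 201 stayed within 1.5 times. The causes of these changes were not tested. No paired analysis was possible because each group had 1 library. Without replicates or read depth, neither biological spread nor counting error could be set beside any ratio.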

Other observations

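The fatty acid hydroxylase domain of the ERG25 hit and ERG3 was annotated in 5 genes of the table, of which 3 were lower and 0 higher in the mutant at day 14, where 14% of all tested genes were lower. After rescaling by the median ratio all 5 were lower, as were 2385 of 9272 tested genes. Beside ERG3 the 3 were hits to the sphingolipid hydroxylases SUR2 (gene07083) and SCS7 (gene07061), which modify the ceramides that pack with ergosterol in the membrane. The wild type held SUR2 at 740.0 TPM, and the mutant at 131 TPM on day 14 and at 155 and 157 TPM on day 18 at 19 °C and 25 °C. For SCS7 the wild type held 723 TPM and the mutant 184 TPM on day 14, but 677 and 807 TPM on day 18 at those temperatures. SUR2, like ERG3, was therefore lower in each mutant library, whereas SCS7 was lower than the wild type by over 2-fold in the day 14 library and not in the day 18 libraries. This set was chosen after its values were seen.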
